A study of Homo sapiens with 24 samples.

Results

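The genes described here are 41 genes of ribosome biogenesis and the transcription factor gene MYC, 42 in all, given as a list of symbols. Each gene was read from the probe set that carried its symbol alone, and where several did, from the one with the highest mean over the 24 arrays. This gave a level for 39 of the 42 genes, 38 of them in ribosome biogenesis, out of 17448 genes tested in the series. The probe set of NOP56 also carried SNORD56, and GNL3 and DDX18 had no probe set of a single symbol, so these 3 genes were not analysed here. The list was drawn up with earlier results of these data known, so the choice of members may not be independent of the values below.

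The arrays measured total RNA of SW1222, an established human colorectal cancer line, after DPPA3 had been gained or lost. DPPA3 (Stella) is a germ cell and early embryo protein that takes part in the control of DNA methylation. The gain of DPPA3 was studied with a doxycycline-inducible line and its control line, 3 arrays a group. Both lines received 5 µg/ml doxycycline, for the last 5 days of growth as megacolonies embedded in Matrigel (3D) or for 4 hours in flat culture (2D). The loss of DPPA3 was studied in untreated 3D cultures, with a DPPA3 shRNA against a control shRNA (3 arrays each), and with the knockout clones C66 and C75 against cells with a scrambled guide RNA (2 arrays each). All cells were kept at 21% oxygen, 5% CO2 and 37 °C. Each knockout is 1 clone, and the promoter that drives DPPA3 is not known from the labels. No array of the induced line without doxycycline was used here, so a difference between induced and control cells is a difference between 2 lines. The 3D and 2D cultures also differ in the time on doxycycline, and culture and time cannot be told apart. Nothing in the labels says that arrays of a group came from separate cultures, so the p-values measure the spread between these arrays, which may be technical.

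Ribosomes are built in the nucleolus, where RNA polymerase I transcribes the ribosomal RNA precursor. Small nucleolar RNPs modify this precursor, the small subunit processome folds and cleaves it, and a long series of assembly factors matures the 40S and 60S subunits before export. Many of these factors are direct targets of MYC, which binds with its partner MAX to the E-box CACGTG, and their output is matched to growth and division. MYC itself is a target of Wnt signalling in the intestinal epithelium and is commonly raised in colorectal cancer.

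The E-boxes in the promoters are shown first, because they are the sequence element that MYC binds with MAX. RefSeq promoters of GRCh38.p14, 250 bases before to 50 bases after a gene's start, were found for 32 of the 38 ribosome biogenesis genes. The letters CACGTG, which read the same on both strands, were present in 15 of these 32 genes (46.9%), against 11% of the 13864 tested genes with a promoter. By promoter they were present in 40.5% of the 37 promoters of these genes, against 7.26% of all 35116 promoters of that length. The letters are a description of the sequence and not a measured binding site. The first group below holds the genes with a CACGTG that passed the test in both cell lines, with lower levels in 3D than in 2D culture. Each is shown as 30 bases on the gene's strand with the E-box in capitals.
MRTO4: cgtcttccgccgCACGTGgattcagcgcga
PNO1: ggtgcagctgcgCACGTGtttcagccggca
LYAR: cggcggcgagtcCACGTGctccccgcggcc
DDX21: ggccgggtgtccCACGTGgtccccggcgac
UTP20: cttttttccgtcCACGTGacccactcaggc
FBL: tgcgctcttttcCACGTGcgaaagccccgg
PES1: tccttggcagggCACGTGcgggaggaagtg

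The second group holds genes that also have a CACGTG but passed the test in neither line. Their mean levels were also lower in 3D than in 2D culture in both lines. This second group is shown so that it can be read beside the first. The remaining genes with a CACGTG, NOC3L, NOP14, NOP2 and WDR43, passed in the induced line only, and their windows are not shown.
RRP9: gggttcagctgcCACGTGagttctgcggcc
BYSL: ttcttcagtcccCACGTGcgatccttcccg
MYBBP1A: ggggccggagcaCACGTGtttcgtgtttcg
IMP4: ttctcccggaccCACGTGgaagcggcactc

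These windows lie close to the annotated starts, counted so that the first transcribed base is 1 and the base before it is -1. The E-box of UTP20 begins at -10 (chr12:101280083-101280112, plus strand), that of DDX21 at -31 (chr10:68956604-68956633, plus strand) and that of LYAR at -64 (chr4:4290068-4290097, minus strand). Those of MRTO4 (15, chr1:19251807-19251836, plus strand), PNO1 (10, chr2:68157885-68157914, plus strand), FBL (7, chr19:39846356-39846385, minus strand) and PES1 (14, chr22:30591880-30591909, minus strand) begin within the first transcribed bases. Among the genes that passed in neither line, the E-box begins at -5 in RRP9 (chr3:51941892-51941921, minus strand), at 29 in BYSL (chr6:41921515-41921544, plus strand), at 28 in MYBBP1A (chr17:4555340-4555369, minus strand) and at 16 in IMP4 (chr2:130342900-130342929, plus strand). IMP4 holds another CACGTG, at -203.

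The 250 bases before the start of UTP20, the gene with the smallest adjusted p of the list in the induced line, are 47.6% G and C and hold 1 CACGTG, in capitals (chr12:101279855-101280104, plus strand).
UTP20: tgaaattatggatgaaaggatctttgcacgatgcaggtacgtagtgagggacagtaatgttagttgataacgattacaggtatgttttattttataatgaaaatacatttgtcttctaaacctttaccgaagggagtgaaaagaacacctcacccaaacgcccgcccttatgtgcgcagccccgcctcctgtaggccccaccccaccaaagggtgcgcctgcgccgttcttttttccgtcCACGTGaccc

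All levels below are log2 expression values, on which 1 unit is a doubling, and a difference between groups is a log2 fold change from limma with its standard error (SE). The threshold to pass was an adjusted p of 0.05, by Benjamini and Hochberg's method over the 17448 genes. Array medians over all 20276 probe sets ran from 4.01 to 4.12. The correlation of replicate arrays over these probe sets, which are not independent replicates, was r = 0.988 to 0.994. The labelled cell type was borne out by its markers: all 10 epithelial markers were above the array median over genes on all 24 arrays. Of the 8 mesenchymal markers 7 were below it on every array and COL1A1 was above it on 21, all 3 endothelial markers were below it, and 3 of 4 leukocyte markers were below it, with CD68 above. DPPA3 read 3.77, 4.54 and 4.74 in induced and 2.99, 2.59 and 2.97 in control cells in 3D, and 4.73, 4.18 and 6.16 against 2.83, 3.27 and 3.47 in 2D, so it rose in both. Its probe set did not show the loss in the other models, with a log2 fold change of -0.04 for the shRNA, -0.16 for C66 and 0.19 for C75. In the control line of the induction experiment it already read below the array medians, where a fall is hard to see. Its levels in the control shRNA and scrambled-guide cells are not given here. These values thus do not tell whether DPPA3 was lost. The RNA came from whole cultures, so fewer cells that express a gene and less RNA per cell cannot be told apart.

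Of the 39 measured genes, 38 had a mean level above the median of all genes. The exception was NPM1, a nucleolar chaperone that is abundant in most cells, whose probe set had a mean of 3.44 and thus read little. To see the group as a whole, each of the 38 ribosome biogenesis genes was centred on its own mean over the 24 arrays, and the median of these values was taken on each array. It was highest in flat culture, at 0.44, 0.39 and 0.51 in the induced line and 0.43, 0.53 and 0.51 in the control line. In the 3D cultures of the same lines it was 0.19, 0.17 and 0.13 in control and -0.04, -0.02 and -0.11 in induced cells. The 6 arrays of 2D culture thus lay above all others, and the 3 control arrays in 3D lay above the 3 induced ones.

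The shRNA and knockout arrays, all 3D, read between -0.37 and -0.11. The same median was -0.29, -0.22 and -0.30 with the control shRNA and -0.18, -0.27 and -0.29 with the DPPA3 shRNA, which overlapped. It was -0.25 and -0.37 with the scrambled guide, -0.37 and -0.26 in C66, and -0.11 on both arrays of C75. Each experiment has its own cell lines, so experiment and level cannot be told apart and no test was made across experiments.

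**Figure D1:**
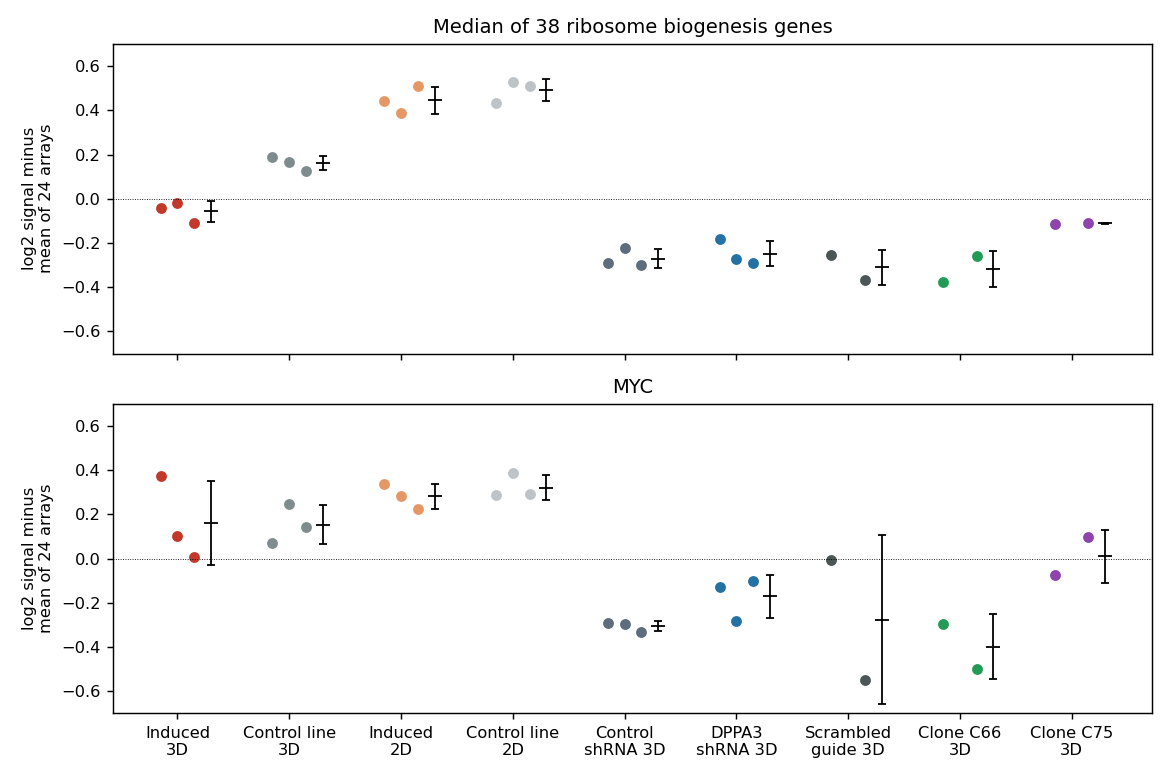
Upper panel: median over the 38 ribosome biogenesis genes, each centred on its own mean over 24 arrays (vertical axis, log2). Lower panel: MYC, centred in the same way, both for the 9 groups (horizontal axis), with arrays as points and mean ± SD as black marks with bars. In the upper panel the 2D arrays lie between 0.39 and 0.53 and all 3D arrays at or below 0.19.

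The comparisons of 3D with 2D culture held the most calls, and they include the control line, which carries no induced DPPA3. Of the 38 ribosome biogenesis genes 16 fell in 3D and 0 rose, while 2.88% of all tested genes fell and 4.92% rose. The median log2 fold change was -0.33, against -0.02 over all genes, and 37 of the 38 values were below 0, against 53.7% of all genes. The arrays of 24 of the 38 genes were all lower in 3D than in 2D, which held for 11.7% of all genes. Of the 16 calls, 9 passed whichever single array was left out. With variances from the 6 compared arrays alone 7 passed (NCL, PA2G4, DDX21, LYAR, NOLC1, NOP16 and TSR1), and DKC1 (limma adjusted p = 0.0543) and UTP20 (0.0568) were among those that did not.

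Nucleolar proteins with several roles had the highest share of calls, 4 of 5, with a median of -0.52. NCL, nucleolin, a major RNA-binding protein of the nucleolus, read 10.08, 10.09 and 10.19 in 3D and 10.53, 10.70 and 10.68 in 2D. The 2 groups lay apart, and NCL fell by 0.52 (log2 fold change -0.52, SE 0.0880, limma adjusted p = 0.000474).
PA2G4, a growth-regulating protein found in pre-ribosomes, read 9.56, 9.37 and 9.51 in 3D and 9.95, 9.93 and 9.91 in 2D, without overlap, with a log2 fold change of -0.45 (adjusted p = 0.00341). DDX21, a helicase that couples polymerase I transcription to rRNA processing, read 7.32, 7.01 and 6.95 against 7.57, 7.67 and 7.91. Its highest 3D array was below its lowest 2D array (log2 fold change -0.62, adjusted p = 0.00366). LYAR, a nucleolar regulator of cell growth, had the most negative value of the list. It read 5.61, 5.69 and 6.27 in 3D and 6.37, 6.80 and 6.54 in 2D, where the third 3D array came near the 2D range (log2 fold change -0.71, SE 0.154, adjusted p = 0.00444).

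Of the 5 proteins of the small nucleolar RNPs and their cofactors 3 fell, with a median of -0.43. NOLC1, which escorts these RNPs through the nucleolus, read 7.72, 7.88 and 7.93 in 3D and 8.38, 8.32 and 8.48 in 2D. Its groups lay well apart, at a log2 fold change of -0.55 (SE 0.0995, adjusted p = 0.00101). DKC1, the pseudouridine synthase of the H/ACA class, read 8.85, 8.73 and 8.75 against 9.16, 9.26 and 9.19, again without overlap (log2 fold change -0.43, adjusted p = 0.00229). FBL, the methyltransferase of the C/D class, also fell (-0.43), and this call was lost without control 3D replicate 3 or control 2D replicate 2.

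The 60S assembly factors fell in 5 of 13 cases, with a median of -0.25. NOP16 read 7.73, 7.63 and 7.69 in 3D and 8.22, 8.53 and 8.19 in 2D, with no 3D array near the 2D range (log2 fold change -0.63, SE 0.111, adjusted p = 0.000709). MRTO4, which prepares the site of the ribosomal stalk, read 6.86, 6.69 and 6.24 against 7.26, 7.10 and 7.17. It fell by 0.58 (adjusted p = 0.0158), and the call was lost without control 3D replicate 3, which was the lowest array, or without control 2D replicate 1.
NIP7, RRP1B and PES1, a subunit of the PeBoW complex of 60S maturation, made up the other calls. They depended on single arrays: PES1 was lost without any 1 of the 6 arrays, NIP7 without any 1 except control 2D replicate 2, and RRP1B without control 3D replicate 2 or control 2D replicate 1 or 3.

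Small subunit factors fell in 4 of 11 cases (UTP20, UTP15, TSR1 and PNO1), with a median of -0.33. UTP20, a large scaffold of the processome, read 5.998, 6.19 and 6.14 in 3D and 6.52, 6.57 and 6.52 in 2D, a narrow spread in both groups (log2 fold change -0.43, adjusted p = 0.00505). TSR1, a late 40S factor, read 5.98, 6.04 and 5.78 against 6.32, 6.62 and 6.49, without overlap (-0.54, adjusted p = 0.00381). UTP15 had a log2 fold change of -0.63 but its groups overlapped, at 4.25, 3.95 and 4.66 against 4.54, 5.16 and 5.05. The UTP15 call (adjusted p = 0.0382) was lost without control 3D replicate 1 or 2 or control 2D replicate 2 or 3, and that of PNO1 without any single array except control 2D replicate 1.

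None of the 4 genes of RNA polymerase I and its regulation passed in the control line. Their log2 fold changes were -0.23 for the largest subunit POLR1A, -0.36 for the second largest, POLR1B, -0.24 for HEATR1 and -0.32 for MYBBP1A, and at an unadjusted p under 0.05 limma gave 25 of the 39 genes in all, against 22.1% of all tested genes. At the other end of the list stood RRP12, a factor in the export of pre-ribosomes, with 4.43, 4.64 and 4.65 in 3D and 4.44, 4.43 and 4.62 in 2D. Its groups overlapped fully, and its log2 fold change of 0.08 was the highest of the 38.

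**Figure D2:**
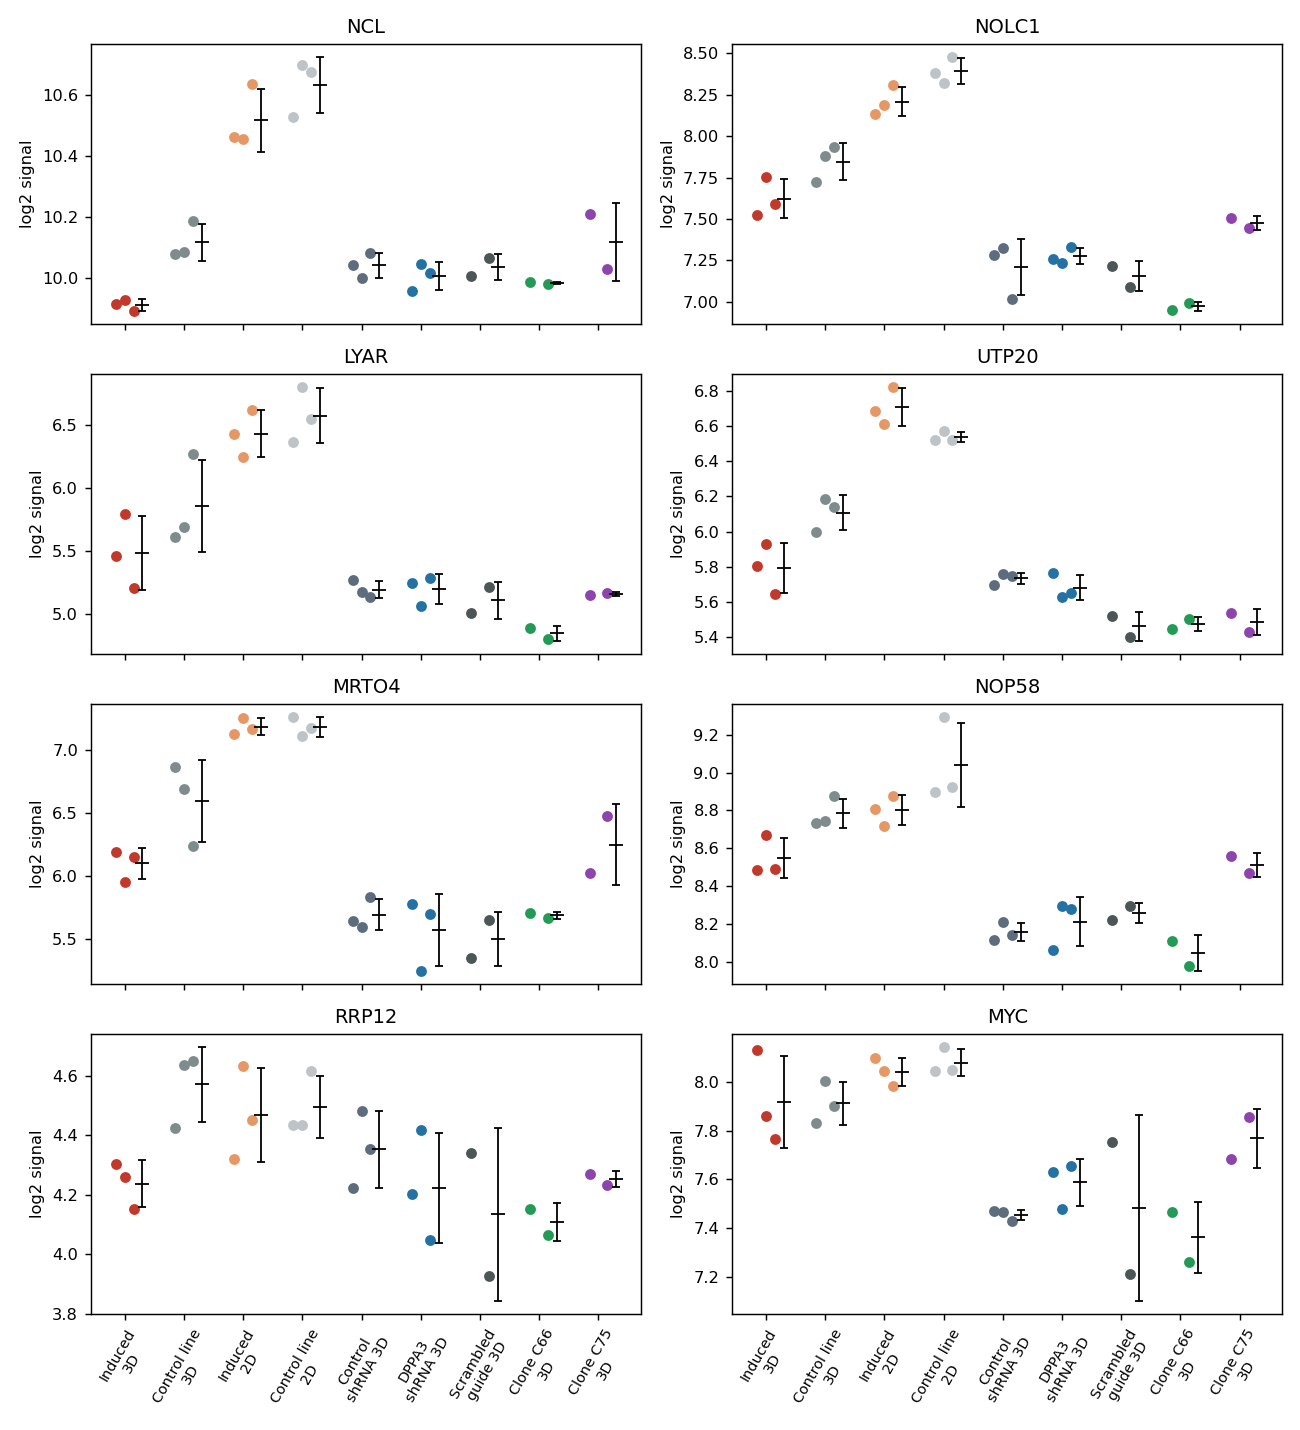
Level of 8 of the genes (log2 expression, vertical axes) on each of the 24 arrays, by group (horizontal axes). Points are arrays and black marks with bars are means ± SD. NCL, NOLC1, LYAR, UTP20 and MRTO4 are highest on the 2D arrays, RRP12 is at like levels in 3D and 2D of the control line, and MYC lies between 7.77 and 8.14 on the arrays of the induction experiment.

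In the induced line the fall from 2D to 3D covered most of the list. Of the 38 genes 29 fell and 0 rose, against 7.35% and 7.55% of all tested genes. The median log2 fold change was -0.51, against -0.03 over all genes, and all 38 values were below 0, against 56% of all genes. The arrays of 34 genes were all lower in 3D, against 15.4% of all genes. The 16 genes that passed in the control line all passed here, the whole of that list and 55.2% of the 29. These 2 comparisons share no array, but both take each gene's variance from the same model of all groups. The 2 sets of calls are therefore not independent. With variances from the compared arrays alone, 7 genes passed in the control line and 26 in the induced line. Those 7 were all among the 26. The value was more negative in the induced line for 33 of the 38.

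MRTO4 had the most negative value. It read 6.19, 5.96 and 6.15 in 3D and 7.13, 7.25 and 7.17 in 2D, so that the groups lay nearly 1 unit apart. Its log2 fold change came to -1.08 (SE 0.149, adjusted p = 1.38e-05), a level in 3D of 0.473 times that in 2D. UTP20 read 5.80, 5.93 and 5.64 against 6.69, 6.61 and 6.82, without overlap, and had the smallest adjusted p of the list (log2 fold change -0.91, SE 0.0936, adjusted p = 2.26e-07).
DKC1 read 8.54, 8.68 and 8.52 in 3D and 9.19, 9.22 and 9.27 in 2D (log2 fold change -0.65, adjusted p = 8.27e-06). PA2G4 read 9.11, 9.19 and 9.01 against 9.72, 9.74 and 9.96 (-0.70, adjusted p = 9.67e-06). In both genes every 3D array was well below every 2D array. NOP16 read 7.65, 7.46 and 7.17 against 8.09, 8.28 and 8.28 (-0.79, adjusted p = 1.69e-05). NCL read 9.92, 9.93 and 9.89 against 10.46, 10.46 and 10.64 (-0.61, adjusted p = 2.62e-05), with almost no spread in 3D.

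By role, 3 of 4 genes of RNA polymerase I and its regulation fell (median -0.44), among them POLR1A (-0.46) and POLR1B (-0.46), as did 3 of 5 small nucleolar RNP proteins (-0.53). Of the small subunit factors 8 of 11 fell (-0.63), of the 60S assembly factors 10 of 13 (-0.47), and of the nucleolar proteins with several roles all 5 (-0.65). These 5 include NPM1, whose dim probe set averaged only 3.30 in 3D and 3.77 in 2D. A further 13 genes passed in the induced and not in the control line: DDX10, GRWD1, HEATR1, NOC3L, NOP14, NOP2, NPM1, POLR1A, POLR1B, RRS1, WDR12, WDR43 and WDR75. Whether a gene differs between the lines is tested below as a difference of effects. The value nearest to 0 was that of MYBBP1A (-0.20, adjusted p = 0.322), a nucleolar regulator of transcription, with 5.70, 5.45 and 5.61 in 3D and 5.89, 5.70 and 5.76 in 2D, which overlapped at their edge. BOP1, BYSL, DDX56, IMP4, MYBBP1A, NOC2L, NOP58, RRP12 and RRP9 passed in neither line.

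Of the 29 calls, 20 passed whichever array was left out. The other 9 were lost at least once. RRS1 was lost without induced 3D replicate 1 or 3 or 2D replicate 1 or 3, POLR1B without induced 3D replicate 1 or 3 or 2D replicate 3, and GRWD1 without induced 3D replicate 2 or 2D replicate 1 or 2. HEATR1 was lost without induced 3D replicate 1 or 2D replicate 3, DDX10 without 3D replicate 1 or 2D replicate 1, and PNO1 and RRP1B without 3D replicate 3 or 2D replicate 3. WDR12 was lost without 3D replicate 1 and WDR75 without 2D replicate 3.

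**Figure D3:**
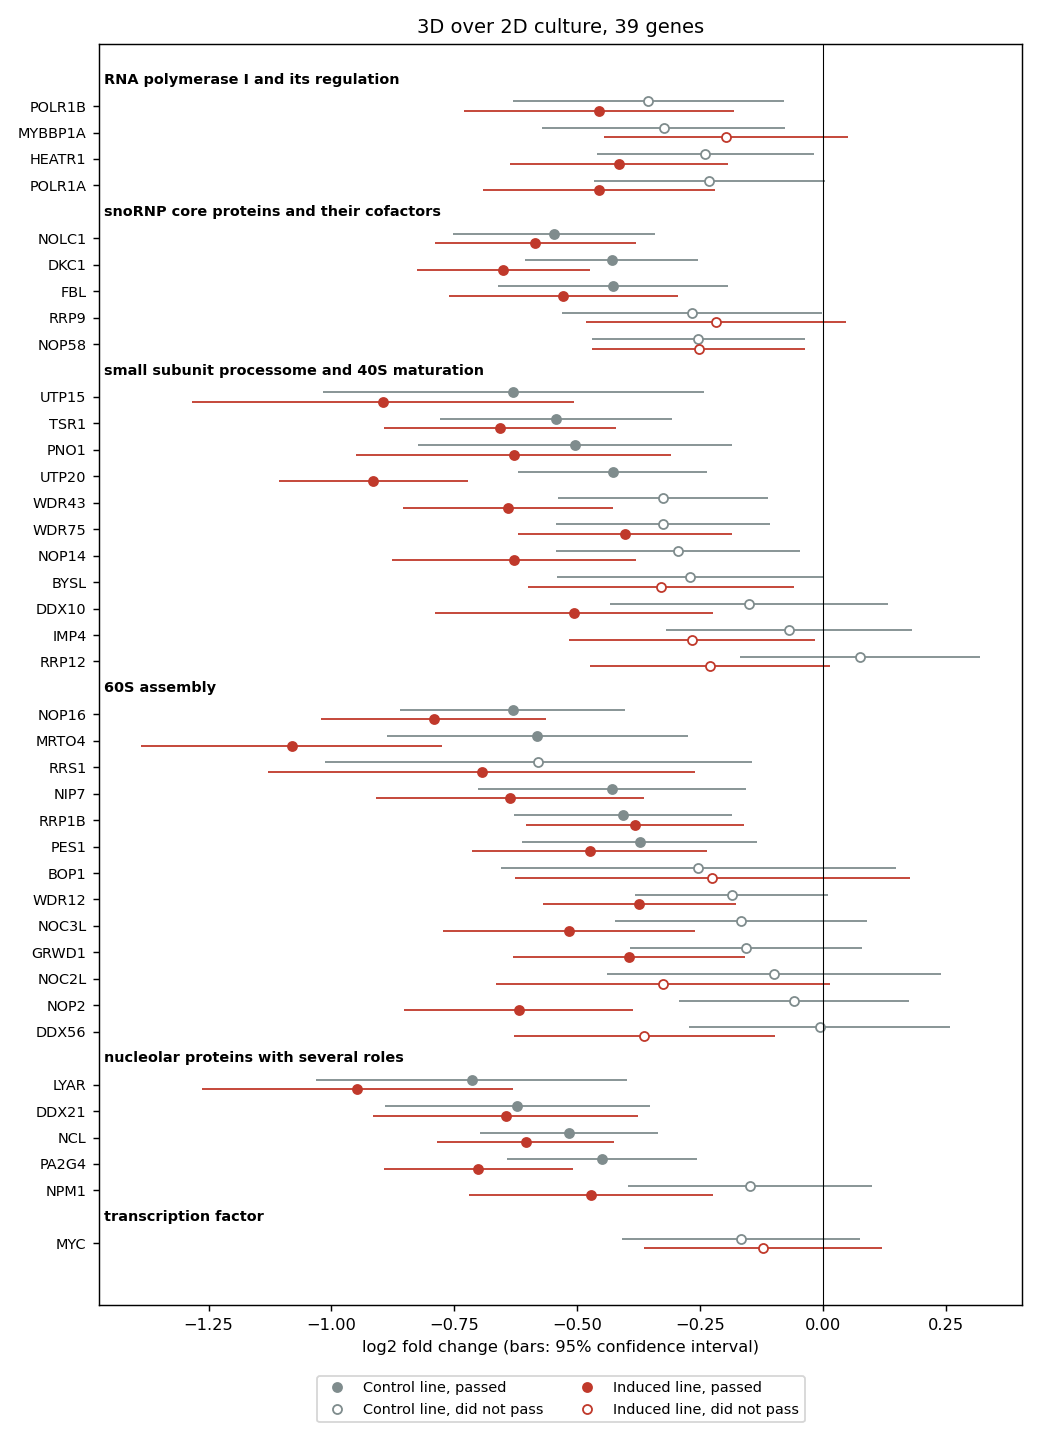
Log2 fold change of 3D over 2D culture (horizontal axis) for each of the 39 genes (rows) in the control and the induced line. Points are estimates, bars are 95% confidence intervals, and filled points passed at an adjusted p under 0.05. In the control line 16 and in the induced line 29 of the 38 ribosome biogenesis genes passed, all below 0, and MYC passed in neither.

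Genes of proliferation moved in the same comparisons. Of 20 genes on a list of replication and mitosis genes 9 fell in the control line (median -0.37) and 19 in the induced line (median -0.75), and none rose. Over all tested genes 2.88% and 7.35% fell, with medians of -0.02 and -0.03. MKI67, the Ki-67 antigen of dividing cells, had a log2 fold change of -0.25 in the control line, where it did not pass, and -0.76 in the induced line, where it fell. The part of proliferation in the ribosome biogenesis values was not tested. Genes with a CACGTG in the promoter window did not stand apart by count: in the control line 7 of 15 with it and 7 of 17 without it fell (medians -0.33 and -0.33), and in the induced line 11 of 15 and 15 of 17 (medians -0.62 and -0.47).

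Between induced and control cells in 3D the difference was in the same direction and smaller. Of the 38 genes 3 fell, PA2G4, UTP20 and MRTO4, and 0 rose, against 2.77% and 2.93% of all tested genes. These 3 head the given list, which was drawn up with earlier results of these data known. Their count may thus not be independent of the choice of members. The median log2 fold change was -0.22, against -0.01 over all genes, and 35 of 38 values were below 0, against 52.6% of all genes. The arrays did not overlap, with induced cells lower, for 14 of the 38 genes, against 9.57% of all genes, and at an unadjusted p under 0.05 limma gave 17 of the 39 genes, all lower, against 16% of all tested genes in either direction.

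PA2G4 read 9.11, 9.19 and 9.01 in induced and 9.56, 9.37 and 9.51 in control cells, without overlap (log2 fold change -0.37, SE 0.0935, adjusted p = 0.0146). UTP20 read 5.80, 5.93 and 5.64 against 5.998, 6.19 and 6.14, where the highest induced array lay just under the lowest control array (-0.32, SE 0.0936, adjusted p = 0.0445). MRTO4 read 6.19, 5.96 and 6.15 against 6.86, 6.69 and 6.24, where the third control array lay close to the induced ones (-0.50, SE 0.149, adjusted p = 0.0470). All 3 calls rested on single arrays. PA2G4 was lost without induced replicate 3 or control replicate 1, UTP20 without induced replicate 1 or 3 or control replicate 2 or 3, and MRTO4 without any 1 of the 6 arrays except control replicate 3. With variances from the 6 compared arrays alone 0 of the 3 passed, and the count over the list ran from 0 without induced replicate 3 to 4 without control replicate 3. The highest value was that of HEATR1 (0.09), a processome protein needed for polymerase I transcription, with 6.88, 7.16 and 7.07 in induced and 7.01, 7.01 and 6.82 in control cells, which overlapped.

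The proliferation list fell here too, in 11 of 20 genes with a median of -0.39, against 2.77% and a median of -0.01 over all genes. MKI67 fell by 0.56 (7.30, 7.76 and 7.28 against 7.97, 8.004 and 8.06). The part of proliferation in the values above was not tested.

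After 4 hours in 2D there was no such shift. Limma called 0 of the 39 genes, against 3.13% of all tested genes, and gave 3 at an unadjusted p under 0.05 (NOP2 and HEATR1 higher, NOP58 lower), below the share of 13.6% over all genes. With a median of -0.03, 23 of 38 log2 fold changes were below 0, against 48.8% of all genes. Arrays did not overlap for 3 higher and 4 lower genes of the 38, against 9.61% and 7.09% of all genes. NOP2, a methyltransferase of 60S assembly, had the highest value, 0.28, from 7.16, 7.13 and 7.33 in induced and 6.92, 6.95 and 6.92 in control cells, which did not overlap. RRS1, which helps to build in the 5S particle, had the lowest, -0.28, from 6.13, 6.05 and 6.25 against 5.98, 6.57 and 6.72, which did.

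The 3D and 2D effects of induction were compared directly as a difference of the 2 log2 fold changes. Limma called 0 of the 39 genes, against 0.241% of all tested genes, and gave 4 at an unadjusted p under 0.05, all lower in 3D (UTP20, MRTO4, NOP2 and WDR43), which is near the share of 8.98% over all genes. The median was -0.19, against -0.01 over all genes, and 33 of 38 values were below 0, against 52.4% of all genes. The most negative value was that of NOP2, -0.56 (SE 0.160, adjusted p = 0.190), whose 3D levels were 6.55, 6.70 and 6.51 in induced and 7.02, 6.89 and 6.69 in control cells. NOP2 was thus higher than control on all arrays in 2D, while in 3D its groups overlapped narrowly. UTP20 read lower than control on all arrays in 3D and higher on all arrays in 2D, with 6.69, 6.61 and 6.82 against 6.52, 6.57 and 6.52 in 2D, and a difference of -0.49 (SE 0.132, adjusted p = 0.154). The highest value was that of MYBBP1A, 0.13. Since the same 12 arrays enter this difference and the 3D over 2D comparisons, these are views of 1 set of values.

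The DPPA3 shRNA gave no call on the list. Limma called 0 of the 39 genes, against 0.086% of all tested genes, and gave 1 at an unadjusted p under 0.05, below the share of 5.26% over all genes. With a median of 0.01, 18 of 38 log2 fold changes were below 0, against 50.2% of all genes. Arrays did not overlap for 0 higher genes and 1 lower gene, against 5.16% and 5.62% of all genes. The gene with the unadjusted p was DKC1, at 8.30, 8.35 and 8.19 with the DPPA3 shRNA and 8.42, 8.50 and 8.50 with the control shRNA, a small difference without overlap (-0.20, adjusted p = 0.849). The extremes were NOC2L, a 60S export factor, at -0.32 (5.48, 5.04 and 4.99 against 5.41, 5.50 and 5.57, which overlapped) and RRS1 at 0.30 (5.49, 5.46 and 5.24 against 5.41, 4.86 and 5.02, which overlapped).

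The knockout clones were each compared with the same 2 arrays of cells with a scrambled guide, so the comparisons share their controls. In C66 limma called 0 of the 39 genes, against 1.43% of all tested genes, and gave 1 at an unadjusted p under 0.05, below the share of 9.55% over all genes. The values centred on -0.02, and 23 of 38 were below 0, against 52.2% of all genes. Arrays did not overlap for 5 higher and 8 lower genes, against 20.4% and 22.5% of all genes. The gene with the unadjusted p was NOC3L, at 4.52 and 4.47 in C66 and 4.84 and 4.80 in the controls (-0.33, adjusted p = 0.485). The lowest value was that of BOP1, a PeBoW subunit, at -0.47 (4.22 and 4.65 against 4.97 and 4.83). Its other probe set gave -0.13, so the size differed between the probes. The highest was UTP15, at 0.37 (4.20 and 4.02 against 3.71 and 3.77, without overlap).

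In C75 the values were mostly above 0, and again none passed. Limma called 0 of the 39 genes, against 0.619% of all tested genes, and gave 7 at an unadjusted p under 0.05, all higher, against 8.12% of all genes in either direction. The median log2 fold change was 0.17, and 36 of 38 values were above 0, against 49.6% of all genes. The arrays of 19 genes were all higher in C75, against 19.8% of all genes. MRTO4 had the highest value, at 6.02 and 6.48 in C75 and 5.35 and 5.66 in the controls, which did not overlap (0.75, SE 0.182, adjusted p = 0.0555). It passed under 4 alternative settings, among them leaving dim genes out, and without C75 replicate 1. NOP2 had the lowest value, -0.16.

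**Figure D4:**
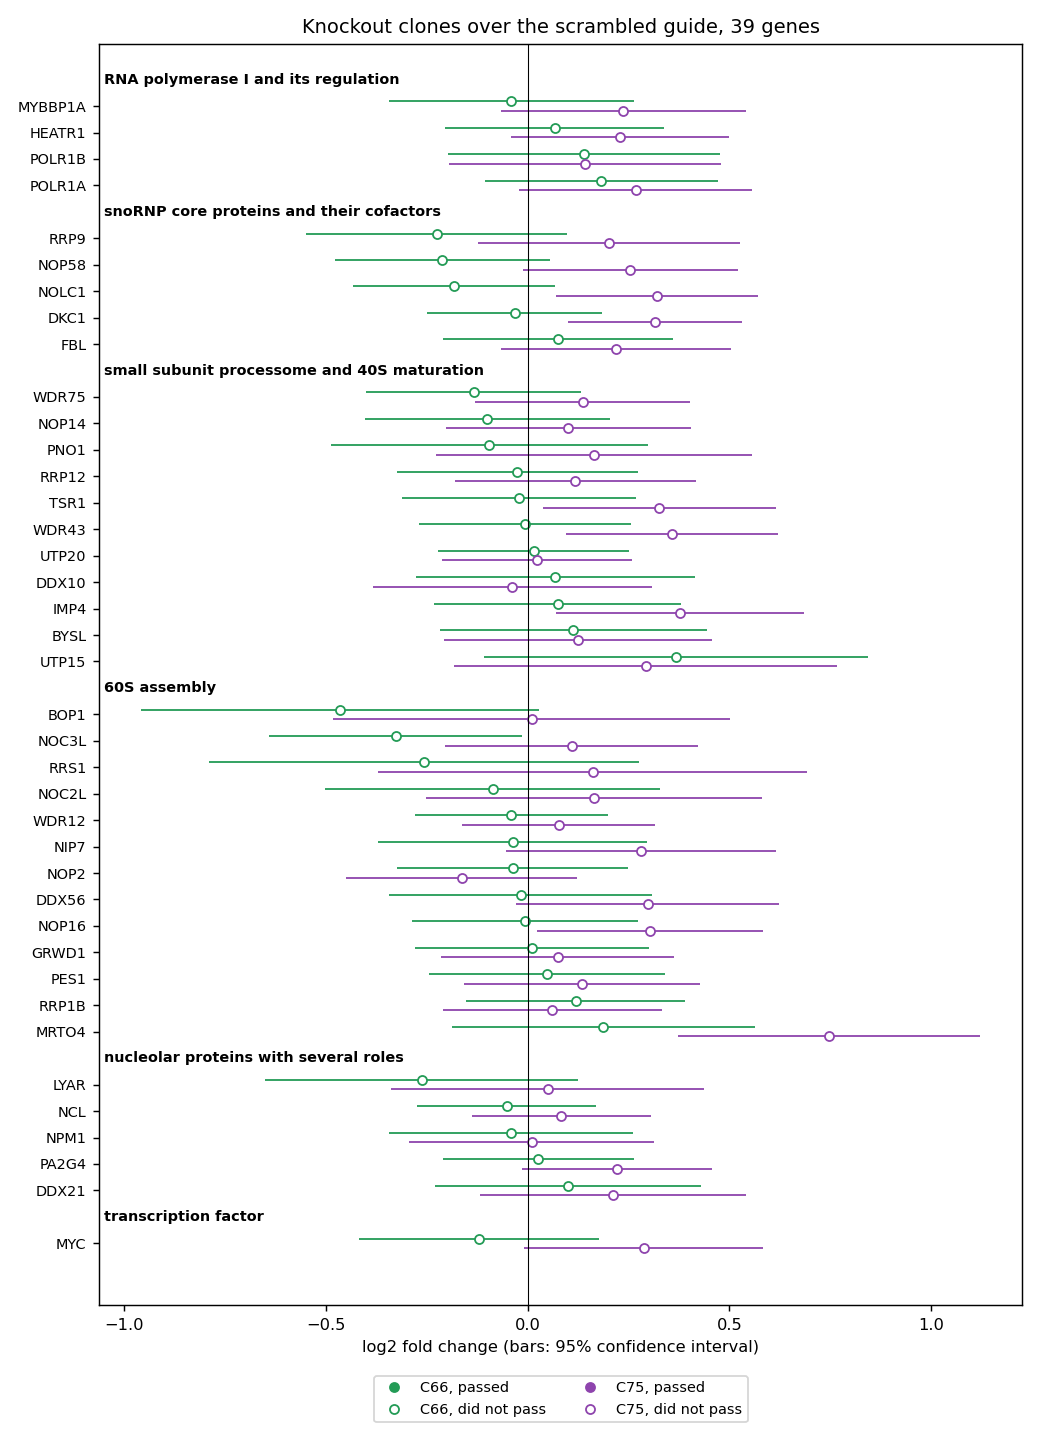
Log2 fold change over the scrambled guide (horizontal axis) for each of the 39 genes (rows) in knockout clones C66 and C75, which share their 2 control arrays. Points are estimates and bars are 95% confidence intervals, and no point passed. In C75 36 of the 38 ribosome biogenesis genes are above 0, and in C66 15 are.

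Set against each other, the clones differed. Of the 38 genes 2 were higher in C75, NOLC1 and NOP58, and 0 were lower, against 0.923% and 1.98% of all tested genes. The median log2 difference was 0.23, against 0.01 over all genes, and 34 of 38 values were above 0, against 52.2% of all genes. The arrays of 21 genes were all higher in C75, against 21.9% of all genes, and 22 of the 38 genes were above the control mean in C75 and below it in C66, against 17.9% of all genes. NOLC1 read 7.51 and 7.45 in C75, 6.95 and 6.99 in C66 and 7.22 and 7.09 in the controls, which lay between the clones (0.50, SE 0.122, adjusted p = 0.0180). NOP58, a core protein of the C/D small nucleolar RNPs, read 8.56 and 8.47, 8.11 and 7.98, and 8.22 and 8.30, in the same order (0.47, SE 0.129, adjusted p = 0.0470). Both calls were lost when any 1 of the 4 arrays of the clones was left out, with adjusted p up to 0.170 for NOLC1 and 0.387 for NOP58. MRTO4 had the highest difference (0.56, from 6.02 and 6.48 against 5.71 and 5.67) and NOP2 the lowest (-0.13). The 10 neighbours of NOP2 on each side along the chromosome had a median of -0.23 in this comparison, and its part in that value was not tested.

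MYC had its highest levels in the induction experiment, where it read 8.10, 8.04 and 7.98 (induced) and 8.05, 8.14 and 8.05 (control) in 2D, and 8.13, 7.86 and 7.77 (induced) and 7.83, 8.01 and 7.90 (control) in 3D. With the control shRNA it read 7.47, 7.46 and 7.43, with the DPPA3 shRNA 7.63, 7.48 and 7.66, with the scrambled guide 7.75 and 7.21, in C66 7.46 and 7.26 and in C75 7.68 and 7.85. By group mean the order was 8.08 in control 2D, 8.04 in induced 2D, 7.92 in induced 3D, 7.91 in control 3D, 7.77 in C75, 7.59 with the DPPA3 shRNA, 7.48 with the scrambled guide, 7.45 with the control shRNA and 7.36 in C66. The pair of scrambled arrays spanned nearly the whole range of the 3D loss models, so neighbours in that part of the order lay within their spread.

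MYC passed in none of the 9 comparisons by limma, and had an unadjusted p under 0.05 in 1 of them, C75 over C66. From 2D to 3D its log2 fold change was -0.17 in the control line (95% confidence interval -0.41 to 0.08, limma adjusted p = 0.444), where all 3D arrays were lower than all 2D arrays, and -0.12 in the induced line (-0.37 to 0.12, adjusted p = 0.578), where they overlapped. The value in the induced line ran from -0.23 without induced 3D replicate 1 to -0.046 without induced 3D replicate 3. Induced over control it was 0.01 in 3D (-0.24 to 0.25, adjusted p = 0.991) and -0.04 in 2D (adjusted p = 0.936), and the value in 3D was -0.10 without induced replicate 1 and -0.034 without control replicate 1. The difference of the 2 effects was 0.04 (-0.30 to 0.39), and -0.061 without induced 3D replicate 1.

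In the loss models MYC read 0.14 higher with the DPPA3 shRNA (-0.11 to 0.38, limma adjusted p = 0.9996), on every array. It was at -0.12 in C66 (adjusted p = 0.915), a value that became 0.15 without scrambled replicate 1, -0.39 without scrambled replicate 2, -0.22 without C66 replicate 1 and -0.017 without C66 replicate 2. In C75 it was at 0.29 (-0.01 to 0.58, adjusted p = 0.636), a value that became 0.56 without scrambled replicate 1 and 0.017 without scrambled replicate 2. C75 was above C66 by 0.41 (0.11 to 0.70, adjusted p = 0.184) with no overlap of arrays.

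Other genes of the pathway, none of them among the 42, were read from 9 further lists. From 2D to 3D in the control line, 7 of 46 other small subunit genes fell and 1 rose (median -0.22, 44 below 0), 2 of 46 other 60S genes fell (-0.12), 1 of 16 polymerase I genes (-0.07), 2 of 12 small nucleolar RNP genes (-0.22) and 2 of 15 exosome genes (-0.13). Of all tested genes 2.88% fell, so the counts of the polymerase I and 60S lists are near that share. LTV1, a 40S export factor, fell by 0.65, RUVBL1, an ATPase of small nucleolar RNP assembly, had a log2 fold change of -0.50, and EXOSC9, an exosome subunit, one of -0.60. ESF1, a pre-rRNA processing factor, rose by 1.07, against the direction of its list. In the induced line 22 of 46 small subunit genes fell, 12 of 46 60S genes fell and 1 rose, and 5 of 16 polymerase I, 4 of 12 small nucleolar RNP and 6 of 15 exosome genes fell, against 7.35% of all genes. POLR1E, a polymerase I subunit, had a log2 fold change of -0.91 there, MAK16, a 60S factor, one of -0.88 and RRP36, a processome factor, one of -0.76.

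The ribosomal proteins themselves had a median near 0, with members on either side. Of 79 listed 57 had a probe set of their own. From 2D to 3D in the control line 1 rose (RPS28, 0.40) and 3 fell (RPL17, -0.37, and RPL7, -0.32, among them), with a median of 0.04, against 4.92% of all genes that rose and 2.88% that fell. In the induced line 7 rose and 0 fell, with a median of 0.01, against 7.55% and 7.35% of all genes. Induced over control in 3D, 2 rose and 1 fell (median 0.01), close to the 2.93% and 2.77% of all genes. RPS13 was one that rose (0.42), and its chromosomal neighbours had a median of 0.36.

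Genes known as MYC targets outside the ribosome fell in 6 of 24 cases from 2D to 3D in the control line (median -0.22), with ODC1, the first enzyme of polyamine synthesis, at -0.50, RAN, the GTPase of nuclear transport, at -0.47 and PTMA, prothymosin alpha, at -0.57. Of all tested genes 2.88% fell there and 4.92% rose. In the induced line 10 fell and 2 rose (median -0.34), against 7.35% and 7.55% of all genes. Induced over control in 3D none fell and 2 rose, with a median of -0.05, against 2.77% and 2.93% of all genes. These were the amino acid transporter gene SLC7A5 (0.63) and SHMT2 of mitochondrial one-carbon metabolism (0.53). Of 15 partners and regulators of MYC 0 passed in the control line from 2D to 3D by limma (median 0.10). In the induced line the MAX partner MXD4 (0.57), a repressor of MYC targets, and MXD1 (0.42) rose and MLX (-0.50) fell. These 2 rises and 1 fall among 15 genes are near the 7.55% and 7.35% of all genes. Induced over control in 3D only MYCL, a MYC paralogue, passed (-0.46, limma adjusted p = 0.0183), against 2.77% of all genes that fell.

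In 3D induced cells, the further lists held some larger falls than the members did. GTPBP4, a GTPase of 60S assembly, had a log2 fold change of -1.09, where its chromosomal neighbours had a median of -0.23, BMS1, a GTPase of the processome, one of -0.98 and RBM28, a 60S factor, one of -0.95, while the lists as a whole held 6 of 46 small subunit, 3 of 46 60S, 1 of 16 polymerase I, 1 of 12 small nucleolar RNP and 2 of 15 exosome genes that fell, and none that rose, against 2.77% and 2.93% of all genes. GTPBP4 and RBM28 also fell in induced cells in 2D (-0.66 and -0.52), where BRIX1, a 60S factor, rose by 0.71, and GTPBP4 was lower in C75 than in C66 (-0.83, with neighbours on the chromosome at a median of -0.46). NOL6, a processome protein, was higher in C75 than in C66 (0.52). EXOSC2, an exosome subunit, was the listed rRNA-processing gene whose induction effect differed between 3D and 2D (-0.70, adjusted p = 0.0309).

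**Figure D5:**
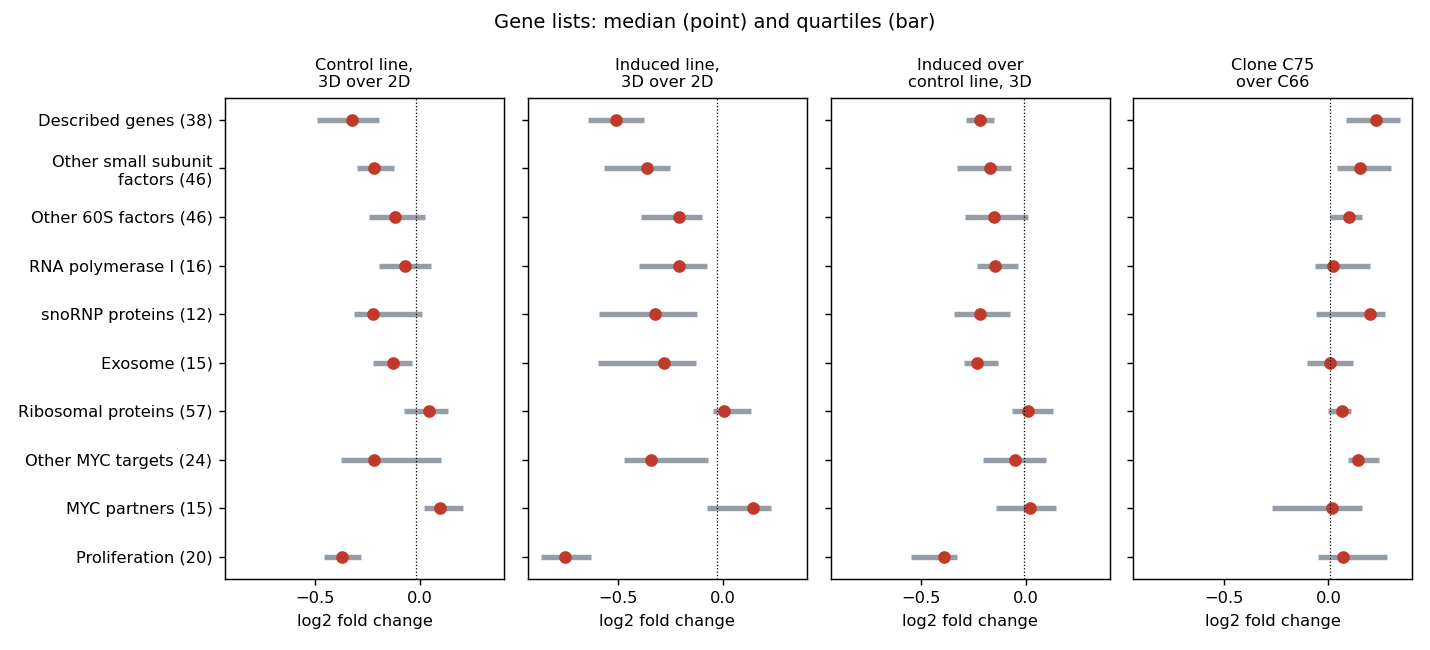
Median (points) and quartiles (bars) of the log2 fold changes (horizontal axes) of the 38 described genes and of 9 further lists (rows, number measured in brackets) in 4 comparisons (panels). The dotted line is the median over all genes tested. The described genes lie at -0.33 and -0.51 for 3D over 2D in the control and the induced line, and the ribosomal proteins at 0.04 and 0.01.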

How the data were processed

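The 24 arrays carried biotin-labelled RNA made by an Affymetrix protocol, per the labels' protocols. Values deposited by the authors are log2 expression levels. The submitters' processing notes name Partek 6.6 and RMA, a method that subtracts background, brings all arrays to 1 distribution and combines the probes of each set, so a change in total RNA per cell does not show. For the probe annotation's genome build, the labels give no name. Of 20276 probe sets 18062 had 1 symbol, 1288 had several and 926 had none in the annotation given. The 2 latter kinds were left out, and 468 genes with more than 1 probe set were read from the one with the highest mean.

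A single model of the 9 group means was then fitted to 17448 genes with limma 3.58.1 in R 4.3.3 (15 residual and 9.81 prior degrees of freedom, 2-sided moderated tests, Benjamini-Hochberg adjustment over all genes, passed under 0.05). The fit was tested on simulated data. The number of arrays limits the precision: the median SE was 0.123 for 3 against 3 arrays, 0.150 for 2 against 2 and 0.174 for the difference of effects. Arrays of a group were compared and none held identical values. The alternatives were variances from the compared arrays alone, dim genes left out, the replicate number as a block, the mean of probe sets, array weights, a mean-variance trend, arrays centred on their medians, genes in shifted chromosomal neighbourhoods left out, and each array left out in turn.

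The members, lists, tests and alternatives were chosen with earlier results of these data known. Every member could be named. Values of each array were given for MYC, for up to 6 members with the smallest p among those that passed, and for those with the highest and lowest log2 fold change. DPPA3 and MKI67 served as checks, and up to 3 passing genes per list and comparison were named. Further members whose arrays are printed, such as TSR1, DKC1 and NOC3L, and the promoters shown, were chosen after their values were seen. Promoter sequences are RefSeq's for GRCh38.p14.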

Additional observations from a re-analysis of the deposited data

Results flagged for a closer look

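The difference between clones C75 and C66 passed limma's test for NOLC1 (log2 difference 0.50, adjusted p = 0.0180) and for NOP58 (0.47, adjusted p = 0.0470), which means that the effects of these clones over the same scrambled controls differed. Both genes read higher than the controls in C75 and lower in C66. Each group holds 2 arrays and each knockout is 1 clone, and neither call held when any 1 of the 4 arrays of the clones was left out.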

How the results depend on the processing

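The medians of the 38 genes kept their sign under every alternative run, except where they were near 0: they ran from -0.083 to 0.018 for induced over control in 2D, from -0.017 to 0.029 with the shRNA and from -0.073 to 0.035 in C66. The counts of 0 in 2D, in the difference of effects, with the shRNA and in C66 stayed at 0. With variances from the compared arrays alone the count of calls went from 16 to 7 in the control line from 2D to 3D, from 3 to 0 for induced over control in 3D and from 2 to 0 for C75 over C66. Array weights gave 4 calls for C75 over C66. In C75 over the scrambled guide, MRTO4 made the count 1 with dim genes left out, with array weights, with a mean-variance trend and with arrays centred on the median.

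Leaving out 1 array at a time gave 11 to 14 calls in the control line from 2D to 3D, 23 to 29 in the induced line, 0 to 4 for induced over control in 3D, 0 to 1 in C75 and 0 to 0 for C75 over C66. The median moved to -0.37 in the control line with centred arrays and to -0.39 without control 2D replicate 2, to -0.59 in the induced line without induced 3D replicate 2, and to 0.22 in C75 without scrambled replicate 1. MYC, near 0, changed sign to -0.0145 with array weights for induced over control in 3D. With 1 array left out MYC ran from -0.10 (without induced replicate 1; -0.034 without control replicate 1) to 0.083 in that comparison, from -0.061 (without induced 3D replicate 1) to 0.12 for the difference of effects, and from -0.39 to 0.15 (without scrambled replicate 1) in C66. The causes were not tested.

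Same-numbered arrays correlated weakly, at -0.21 to 0.17, in their deviations from the group means. In groups of 2 arrays the deviations mirror each other, so both replicates give the same value. Whether arrays of the same number were handled together cannot be read from this. With the replicate number as a block, the count went from 3 to 1 for induced over control in 3D (PA2G4) and from 2 to 1 for C75 over C66 (NOLC1). From 2D to 3D the count went from 16 to 13 in the control line, without NIP7, PES1 and PNO1, and stayed at 29 in the induced line. Depth has no counterpart on arrays, and the dim probe set of NPM1 limits what can be read for that gene.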
